A study of Mus musculus with 6 samples.

Results

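The dystrophin-glycoprotein complex joins the actin cytoskeleton of the muscle fibre to laminin in the basement membrane. The 8 genes described here, out of 34714 gene symbols in the table of counts, encode dystrophin (Dmd), its autosomal relative utrophin (Utrn), dystroglycan (Dag1), α-, β- and δ-sarcoglycan (Sgca, Sgcb and Sgcd), sarcospan (Sspn) and α-dystrobrevin (Dtna). They were chosen by their symbols, and each symbol matched 1 gene of the table. All 8 passed the filter on low counts, which left 15788 genes for testing. The lowest count of any of them was 1897 and the highest was 17636 reads in a library, so counting error was at most 2.30% of a value, and these errors cover counting only.

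Gastrocnemius (Gas) muscles of 3 wild-type (WT) and 3 miR-92b knockout (M92KO) mice were sequenced as whole tissue, with 1 library for each mouse. WT mice were C57BL/6 males. M92KO mice were males of a strain with a global deletion of miR-92b on C57BL/6JGpt, so miR-92b was missing in every cell type and from development onwards. All mice were 8 weeks old and untreated. Both groups therefore shared sex, age, muscle and the lack of training or suspension. Their strain names differ, and the paper describes the WT mice as age-matched and does not call them littermates. A difference of strain cannot be told apart from the deletion. Library totals ranged from 38246649 to 48209846 counts in WT and from 33160508 to 37019640 counts in M92KO mice, so depth was lower throughout the knockout group. The gene of miR-92b has no row in the table, so the deletion was not checked in these counts. Markers of muscle fibres were abundant in every library, and 10 of them summed to 129057 to 141678 CPM (counts per 1000000 counts of the TMM-scaled library) in WT and 130510 to 134350 CPM in M92KO mice.

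Dystrophin binds actin at one end and the transmembrane protein β-dystroglycan at the other, and α-dystroglycan outside the cell binds laminin through its sugar chains. The sarcoglycans and sarcospan form a membrane subcomplex that steadies this axis, and α-dystrobrevin binds dystrophin and syntrophins on the inner face. Utrophin has the same partners and is known for its place at neuromuscular and myotendinous junctions in adult muscle and for its wider distribution in immature and regenerating fibres. Loss of dystrophin, or of single sarcoglycans, causes muscular dystrophy. A microRNA such as miR-92b acts by pairing its seed, bases 2 to 8 of the mature strand, with sites that lie mostly in 3′-UTRs of messenger RNAs.

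Both strands of miR-92b are shown with their seeds in capitals, because the seed sets which sites in the complex's messages can pair with it, and miR-92a-3p and miR-25-3p are shown because they carry the same seed as miR-92b-3p. The sequences are from RefSeq (GRCm38.p6). The 3p strand is encoded at chr3:89227126-89227147 and the 5p strand at chr3:89227165-89227188, both on the minus strand.
miR-92b-3p: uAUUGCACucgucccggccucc
miR-92b-5p: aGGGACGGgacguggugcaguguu
miR-92a-3p: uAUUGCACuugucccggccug
miR-25-3p: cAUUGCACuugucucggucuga
The seed AUUGCAC was also found in miR-32-5p, miR-363-3p and miR-367-3p, whose genes are not the deleted one. No other mature mouse microRNA in the RefSeq table had the seed of miR-92b-5p.

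Matches to bases 2 to 7 of miR-92b-3p were present in the 3′-UTRs of 4 of the 8 genes, and matches to those of miR-92b-5p in none. No gene of the 8 had a match to the whole seed, bases 2 to 8, of either strand. The sites of Dag1, Dmd and Utrn are shown 5′ to 3′ on the strand of the message, from GRCm38 with GENCODE M21 annotation, with the letters that match in capitals. A 6mer pairs with bases 2 to 7 of the microRNA (TGCAAT), and a 7mer-A1 has an A after it (TGCAATA).
Dag1, chr9:108206179-108206185, minus strand, 7mer-A1: ggacattttggtgaagaTGCAATAtttt
Dag1, chr9:108205634-108205640, minus strand, 7mer-A1: tagggaggaatgcctttTGCAATAatgt
Dmd, chrX:85202755-85202760, plus strand, 6mer: gcaggttttacacgtctaTGCAATtgta
Dmd, chrX:85203538-85203544, plus strand, 7mer-A1: atatttaatgatgtttcTGCAATAgaac
Utrn, chr10:12383413-12383418, minus strand, 6mer: tctttatttatttcatctTGCAATctct
Dtna had 1 further 6mer. Sgca, Sgcb, Sgcd and Sspn had no match in 3′-UTRs of 307, 2746, 1710 and 3728 bases. A 7mer or an 8mer was held by 2 of 8 genes here and by 13.8% of the 13664 tested genes with a 3′-UTR searched, and a 6mer or longer by 4 of 8 here and 26.1% of those genes. A match of these letters describes the sequence and does not show that the microRNA binds there.

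Across the complex, differences between M92KO and WT mice were small, and no gene passed the test. Of the 8 genes, 6 had a higher and 2 a lower fitted level in M92KO mice. Their log2 fold changes had a median of 0.10 and a range from −0.32 (Utrn) to 0.34 (Sgcd). The adjusted p-values (edgeR's quasi-likelihood test, adjusted over all genes tested) ranged from 0.328 to 0.950. In this comparison 0% of the 15788 genes passed an adjusted p-value of 0.05, and the median log2 fold change of all genes was 0.00. At an unadjusted p-value under 0.05 there was 1 higher gene, Sgcd, beside 5.47% of all genes in that direction, and 1 lower gene, Utrn, beside 6.92%. In both directions together this was 2 of 8 genes beside 12.4% of all genes. DESeq2 also called none of the 8 at an adjusted p-value of 0.05, where it called 2.04% of all genes, and called the same number, 2, before adjustment. The p-values of edgeR set each group difference against the spread between mice, which is estimated with information from all genes tested. Because whole muscle was sequenced, fewer cells of a type and less RNA per cell cannot be told apart.

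**Figure D1:**
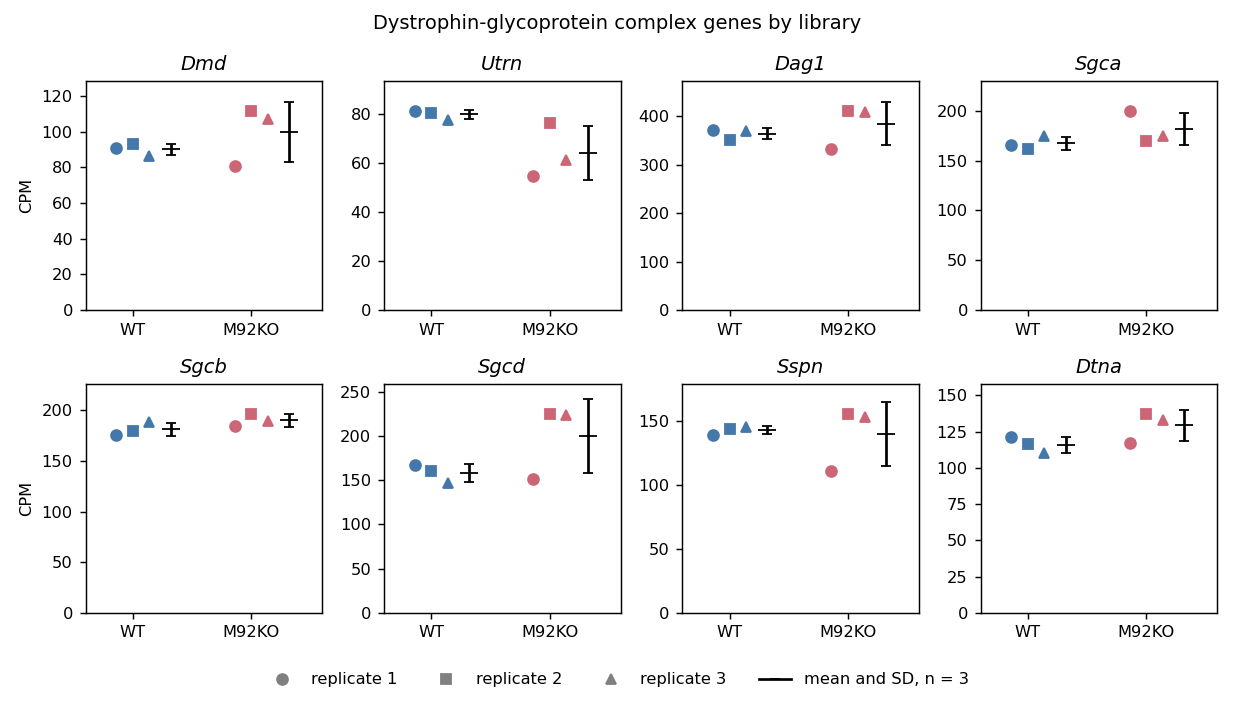
TMM-normalized CPM (vertical axes, from 0) of each of the 8 genes in the 3 WT and 3 M92KO libraries, with symbols for replicates and the mean and SD beside them. Utrn is the gene whose groups do not overlap (77.7 to 81.4 CPM in WT, 54.6 to 76.3 CPM in M92KO), and M92KO replicate 1 lies below the other M92KO libraries for every gene except Sgca.

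One knockout library stood apart in these genes. M92KO replicate 1 had the lowest value of all 6 libraries for Dmd, Utrn, Dag1 and Sspn and the highest for Sgca. Over genes with counts in every library, its log2 CPM correlated with the other M92KO libraries at r = 0.985, whereas M92KO replicates 2 and 3 correlated at 0.990 and WT pairs at 0.989 to 0.991 (across genes, which are not independent). The same library had the highest level of the fast myosin heavy chain Myh4, 31500 CPM against 22933 to 28830 CPM in the other 5. For Myh1, also a fast myosin heavy chain, that library had the lowest level, 9659 CPM against 14339 to 17196 CPM in the other 5. For Myh2, the myosin of fast oxidative fibres, it had 2017 CPM, within the 1611 to 2238 CPM of WT mice, whereas M92KO replicates 2 and 3 had 3573 and 4097 CPM. With all 6 libraries the log2 fold change of Myh2 was 0.70 (SE 0.24, edgeR adjusted p = 0.314), and the groups overlapped. Myh2 was the 1 of the 10 muscle fibre markers that was higher at an unadjusted p-value under 0.05, beside 5.47% of all genes. By qPCR in Gas, the paper reported no difference in fibre-type genes, Myh2 among them. Myh2 passed the adjusted threshold when M92KO replicate 1 was left out (edgeR adjusted p = 0.017). The part of fibre composition in the results was not tested. Values without this library are therefore given beside the results whose call or sign it changed or that it moved most, and without it 2.48% of 16058 genes passed the adjusted threshold and 18.6% the unadjusted one.

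Dmd, which spans chrX:82948870-85206141 on the plus strand, had 90.9, 92.9 and 86.7 CPM in WT and 80.9, 111.7 and 107.1 CPM in M92KO mice. M92KO values lay on both sides of the WT values. The means were 90.2 ± 3.18 and 99.9 ± 16.6 CPM (SD, n = 3), and the log2 fold change was 0.15 (SE 0.12, edgeR adjusted p = 0.666). Without M92KO replicate 1 the log2 fold change was 0.28 (SE 0.06), with an edgeR adjusted p-value of 0.048, so the call for dystrophin depended on 1 library.

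Utrn, at chr10:12382188-12869365 on the minus strand, was lower in all 3 M92KO libraries than in any WT library. Its values were 81.4, 80.6 and 77.7 CPM in WT and 54.6, 76.3 and 61.4 CPM in M92KO mice, or 79.9 ± 1.93 against 64.1 ± 11.1 CPM (SD, n = 3). M92KO replicate 2 lay close to the WT range, and the other M92KO libraries lay well under it. The log2 fold change was −0.32 (SE 0.11), a fold of 0.80, with an unadjusted p-value of 0.022 and an edgeR adjusted p-value of 0.328. The exact permutation test gave p = 0.1, the smallest that 3 against 3 mice allow. Groups that did not overlap were seen for 1 of the 8 genes and for 18.4% of all genes tested. Utrn had the same direction in all 14 alternative analyses, with log2 fold changes from −0.46 to −0.22, and none of them passed the adjusted threshold. Without M92KO replicate 1 it was −0.22 (edgeR adjusted p = 0.256).

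Utrophin is also made outside muscle fibres, in cells such as those of vessels, so marker levels of other cells are given beside it. The 6 endothelial markers (Pecam1, Cdh5, Kdr, Tek, Emcn and Tie1) summed to 865 to 931 CPM in WT and to 761, 950 and 780 CPM in M92KO replicates 1, 2 and 3. Their sum and Utrn were thus both lowest in M92KO replicates 1 and 3. In M92KO replicate 2 the sum lay above the WT range, whereas Utrn, with 76.3 CPM, lay under its WT range. Of the 6 markers 1, Tie1, was lower at an unadjusted p-value under 0.05, beside 6.92% of all genes. The 7 fibroblast markers summed to 1735 to 2387 CPM in WT and 1191 to 1626 CPM in M92KO mice, with 3 of 7 lower at that threshold, beside 6.92% of all genes, and a median log2 fold change of −0.38. For the 5 tendon markers the sums were 106 to 130 CPM in WT and 93.6 to 115 CPM in M92KO mice. At that threshold 4 of 5 were lower, beside 6.92% of all genes, with a median log2 fold change of −0.71. The 5 neuromuscular junction genes summed to 62.4 to 76.1 CPM in WT and 64.2 to 72.1 CPM in M92KO mice. Musk was the gene among them that was higher at that threshold, beside 5.47% of all genes. Of the 5 Schwann cell markers 3 were lower at that threshold, beside 6.92% of all genes. The sums of all 5 were 122 to 165 CPM in WT and 122 to 125 CPM in M92KO mice. Satellite cell markers, 4 genes, summed to 30.1 to 33.4 CPM in WT and 37.5 to 40.8 CPM in M92KO mice. Of these, 2 were higher and 1 was lower, beside 5.47% and 6.92% of all genes. Smooth muscle (5 genes, 209 to 212 CPM in WT, 195 to 241 CPM in M92KO mice) had none at that threshold. The 6 leukocyte markers summed to 25.8 to 27.2 CPM in WT and 18.4 to 26.2 CPM in M92KO mice. Of these, 1 was lower at that threshold, beside 6.92% of all genes, and Cd3e was at 0 in a library of each group. Fat cell markers (5 genes, 4.09 to 11.1 CPM in WT, 7.13 to 19.8 CPM in M92KO mice, with Lep at 0 in a WT library) and red cell markers (5 genes, 74.0 to 222 CPM in WT, 143 to 336 CPM in M92KO mice) had none at that threshold, with medians of 0.73 and 0.66 on the log2 scale. None of these markers passed the adjusted threshold with edgeR. DESeq2, which called 2.04% of all genes, called the fibroblast genes Dcn and Col1a2 and the tendon genes Kera and Tnmd lower. In the fit without M92KO replicate 1, edgeR called 3 of the 5 tendon markers lower, beside 2.48% of all genes called in either direction. The 3 were Kera (adjusted p = 0.031), Fmod (0.031) and Tnmd (0.048). Their part in the Utrn result was not tested.

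Dag1, at chr9:108204634-108263958 on the minus strand, encodes a precursor that is cut into α- and β-dystroglycan. It had 372.2, 350.3 and 369.4 CPM in WT and 333.2, 410.8 and 409.0 CPM in M92KO mice. Again M92KO replicate 1 lay below and the other M92KO libraries above the WT range. The log2 fold change was 0.08 (SE 0.09, edgeR adjusted p = 0.785), and 0.17 (adjusted p = 0.128) without that library. Dag1 did not pass the adjusted threshold in either fit. The part of its 2 7mer-A1 sites in its level was not tested.

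Among the sarcoglycans, Sgcd differed most between the groups and Sgcb least. Sgcd, at chr11:46896253-47988969 on the minus strand, had 167.3, 159.9 and 147.2 CPM in WT and 151.6, 225.5 and 223.7 CPM in M92KO mice. M92KO replicate 1 lay within the WT range and the other M92KO libraries lay well above it. The means were 158 ± 10.2 and 200.3 ± 42.2 CPM (SD, n = 3), and the log2 fold change was 0.34 (SE 0.14), a fold of 1.27, with an unadjusted p-value of 0.044 and an edgeR adjusted p-value of 0.390. Without M92KO replicate 1 it was 0.51 (SE 0.06, edgeR adjusted p = 0.010), the only other of the 8 genes beside Dmd to pass in that fit.

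Sgca, at chr11:94962791-94976327 on the minus strand, encodes the sarcoglycan that is restricted to striated muscle. It had 165.7, 161.9 and 174.8 CPM in WT and 199.9, 170.0 and 174.5 CPM in M92KO mice. Here M92KO replicate 1 was the highest library instead of the lowest, and the groups overlapped. The log2 fold change was 0.12 (SE 0.08, edgeR adjusted p = 0.620), and 0.04 without that library. Sgcb, at chr5:73632749-73647790 on the minus strand, varied least, from 175.8 to 188.6 CPM in WT and from 184.4 to 196.9 CPM in M92KO mice, with a log2 fold change of 0.07 (SE 0.06, edgeR adjusted p = 0.722).

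Sspn, at chr6:145931641-145965223 on the plus strand, encodes a small membrane-spanning protein of the sarcoglycan subcomplex. It had 138.8, 143.0 and 145.0 CPM in WT and 110.3, 155.5 and 152.4 CPM in M92KO mice. The lowest library and the highest library were both M92KO, and the log2 fold change of −0.03 (SE 0.12, edgeR adjusted p = 0.950) became 0.11 (adjusted p = 0.265) without M92KO replicate 1. Dtna, at chr18:23415135-23659715 on the plus strand, had 121.2, 116.1 and 110.3 CPM in WT and 117.1, 137.4 and 133.3 CPM in M92KO mice. M92KO replicate 1 lay within the WT range, and the log2 fold change was 0.16 (SE 0.08, edgeR adjusted p = 0.479), or 0.22 (adjusted p = 0.088) without it. Exons of Sspn and Dtna overlap antisense genes, Sspnos over 69 bases and Gm47898 over 90 bases. The strandedness of the counting is not given in the sources used here, so reads over these bases cannot be assigned with certainty.

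**Figure D2:**
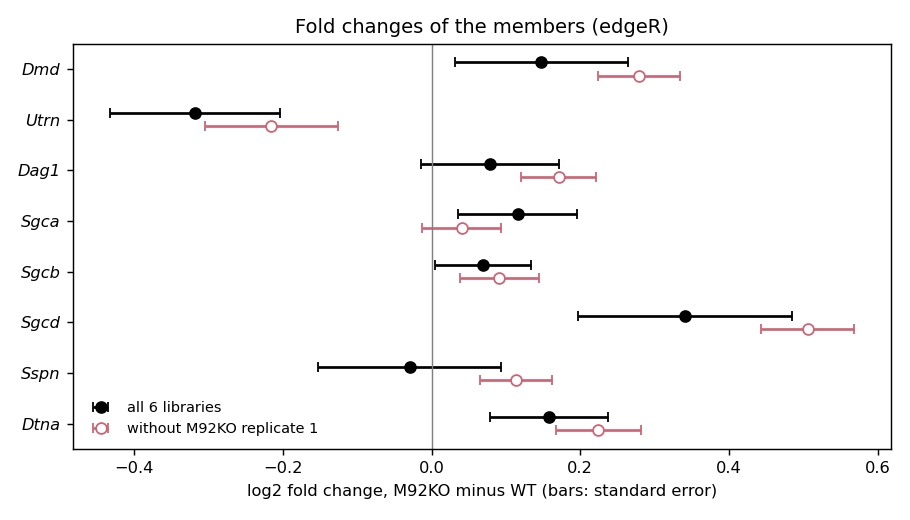
Log2 fold changes, M92KO minus WT, with standard errors from edgeR (horizontal axis) for the 8 genes, with all 6 libraries (filled) and without M92KO replicate 1 (open). Utrn lies on the negative side in both fits (−0.32 and −0.22), Sgcd is the highest in both (0.34 and 0.51), and Sspn crosses from −0.03 to 0.11.

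Without M92KO replicate 1, 6 of the 8 genes were at an unadjusted p-value under 0.05 (Dmd, Utrn, Dag1, Sgcd, Sspn and Dtna), of which 5 were higher and Utrn was lower. In that fit 18.6% of all genes were at this threshold, 9.62% higher and 8.96% lower. In that fit the 8 genes had a median of 0.14 on the log2 scale, beside −0.01 for all genes. This fit rests on 2 M92KO mice. M92KO replicate 1 was singled out by the values of these same genes. Counts and calls from this fit, those of Dmd and Sgcd included, are therefore not independent of that choice. Leaving out any of the other 5 libraries gave between 0 and 1 such gene.

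The stoichiometry of the messages was examined as the ratio of each gene's count to the Dmd count of the same library, which does not depend on library size. There were 0.895, 0.867 and 0.896 Utrn reads for each Dmd read in WT mice and 0.675, 0.683 and 0.574 in M92KO mice. The M92KO libraries, replicate 1 included, all lay under the WT libraries, and the means were 0.886 ± 0.016 and 0.644 ± 0.061 (SD, n = 3). The difference in the log2 ratio was −0.47 (SE 0.08), with an exact two-sided permutation p-value of 0.1, the smallest possible, and of 0.233 after Benjamini-Hochberg adjustment over the 7 ratios. With the sum of the other members in place of Dmd the difference was −0.45, and without M92KO replicate 1 it was −0.50.

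The ratio of Sgcd to Dmd was higher in all M92KO mice, 1.87, 2.02 and 2.09 against 1.84, 1.72 and 1.70 in WT mice (log2 difference 0.19, SE 0.06). The lowest M92KO value lay just above the highest WT value. The ratio of Sspn to Dmd was lower in all M92KO mice, 1.36, 1.39 and 1.42 against 1.53, 1.54 and 1.67 (log2 difference −0.18, SE 0.05). Both had an exact permutation p-value of 0.1 and an adjusted one of 0.233. The ratios of Dag1, Sgca, Sgcb and Dtna to Dmd overlapped between the groups, with log2 differences from −0.06 to 0.02 and exact permutation p-values from 0.5 to 1. Groups did not overlap for 3 of the 7 ratios and for 14.8% of the 15717 genes that had counts in every library when each was divided by Dmd. The 7 ratios share their denominator, so a deviation of Dmd in a library enters all of them.

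**Figure D3:**
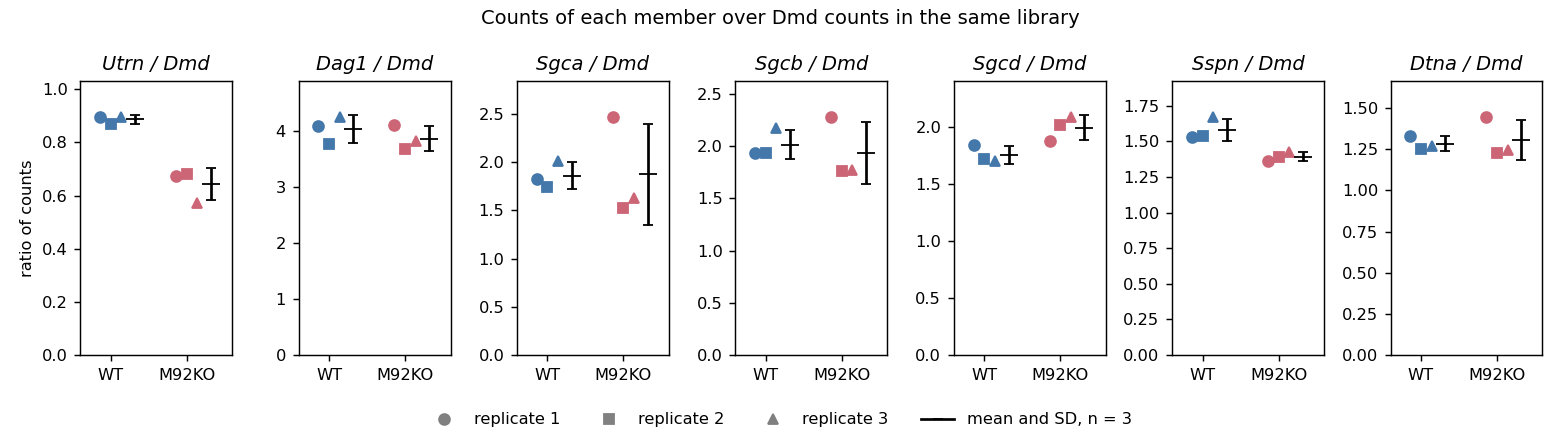
Ratio of each gene's count to the Dmd count of the same library (vertical axes, from 0) in 3 WT and 3 M92KO libraries, with the mean and SD. The Utrn ratios of M92KO mice (0.574 to 0.683) lie under those of WT mice (0.867 to 0.896), whereas Sgca spreads from 1.52 to 2.47 within M92KO mice.

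The genes varied together to different degrees over the 6 libraries. Pearson's r of log2 CPM with Dmd was 0.95 for Sgcd, 0.91 for Dag1, 0.89 for Dtna and 0.81 for Sspn, and 0.58 for Sgcb. It was 0.19 for Utrn and −0.49 for Sgca. Sgcd and Dtna had the highest r of any pair, 0.98, and Utrn and Sgca the lowest, −0.88. These values describe 6 libraries that include both groups and the M92KO library that stood apart, which has a large weight in them. Among 13326 tested genes with a mean of at least 1 CPM, the genes most like Dmd were Eif4e (r = 0.998), Spag9 (0.994), Qser1 (0.994), Ndufb5 (0.993) and Eid1 (0.993). Eif4e, the cap-binding protein of translation initiation, had 127 to 130 CPM in WT and 123, 140.0 and 138 CPM in M92KO mice, so its order of libraries followed that of Dmd with smaller steps.

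Levels of different genes were compared as CPM per kb of merged exons, which divides each level by length. Counts per gene do not show how evenly reads covered a message, so levels of the longest messages, Dmd and Utrn among them, may be affected. In WT mice Sgca was highest with 96.5 ± 3.83, followed by Dag1 with 57.3 ± 1.87, Sgcb with 44.7 ± 1.63, Sspn with 28.5 ± 0.63 and Sgcd with 19.2 ± 1.23 CPM per kb (SD, n = 3). Dtna had 6.84 ± 0.32, Utrn 4.67 ± 0.11 and Dmd 3.79 ± 0.13 CPM per kb. Over all 6 libraries, neighbours in this order did not overlap except Sspn with Sgcd and Utrn with Dmd. In M92KO mice Dmd, with 4.20 ± 0.70, lay above Utrn, with 3.75 ± 0.65 CPM per kb. The order also depended on the length used. Merged exons of Dmd and Dtna, 23.8 and 16.9 kb, pool all annotated transcripts of each gene and exceed the longest transcripts of 14.9 and 6.29 kb. Per kb of the longest transcript Sgcd (35.5) lay above Sspn (31.5), and per kb of coding sequence Sspn was highest (219.5) and Utrn lowest (7.77 CPM per kb). Dystrophin and utrophin were among the 3 lowest by every length. Counts of a gene add up all its isoforms, so the short dystrophins of the Dmd locus are included.

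**Figure D4:**
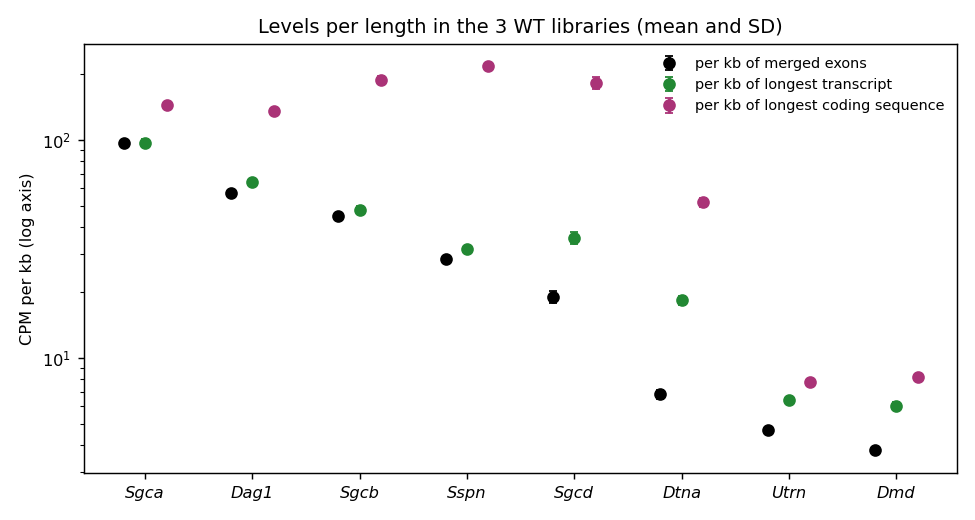
CPM per kb (log axis) of the 8 genes in WT mice, as mean and SD of 3 libraries, by merged exons, longest transcript and longest coding sequence. The sarcoglycans, Dag1 and Sspn lie above Dtna, Utrn and Dmd by each length, and the order within the upper 5 depends on the length.

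The wider pathway was described with 6 lists of 72 genes, of which 68 passed the filter. None passed the adjusted threshold with edgeR, and 11 were at an unadjusted p-value under 0.05 (9 higher and 2 lower, beside 5.47% and 6.92% of all genes). The lists and the genes within them were chosen with earlier results of these data known, so they are given as counts and medians. The groups did not overlap for 11 of the 68 genes, beside 18.4% of all genes tested.

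Among the other sarcoglycans, none was at an unadjusted p-value under 0.05, and Sgcz was at 0 in every library. Sgce, the ε-sarcoglycan found in many tissues, had a log2 fold change of −0.13 (SE 0.13, edgeR adjusted p = 0.749).

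Of 11 tested syntrophins and membrane partners, 0 were higher and 1 was lower at an unadjusted p-value under 0.05, beside 5.47% and 6.92% of all genes. Their median log2 fold change was −0.02. The lower gene was Aqp4, the water channel in the membrane of fast fibres. Aqp4 had 92.3, 105.5 and 104.6 CPM in WT and 68.7, 73.6 and 58.1 CPM in M92KO mice. All M92KO libraries lay under all WT libraries, and M92KO replicate 1 was between the other M92KO libraries. The log2 fold change was −0.59 (SE 0.10, edgeR adjusted p = 0.165), and −0.61 without M92KO replicate 1 (edgeR adjusted p = 0.034). DESeq2 called Aqp4 with an adjusted p-value of 9.7e-05. The part of other cells, whose markers are given above, in this difference was not tested. Nos1, the neuronal nitric oxide synthase that the complex holds at the membrane, had 199, 146 and 146 CPM in WT and 130, 235 and 244 CPM in M92KO mice, and the groups overlapped (log2 fold change 0.31, SE 0.23, edgeR adjusted p = 0.643). The log2 fold change of Nos1 was 0.55 (edgeR adjusted p = 0.073) without M92KO replicate 1.

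Of 18 tested enzymes of dystroglycan glycosylation, 2 were higher and 1 was lower at that threshold, beside 5.47% and 6.92% of all genes. Their median was 0.05. Rxylt1, which adds xylose to ribitol phosphate in the laminin-binding chain, had 27.3, 26.7 and 25.7 CPM in WT and 33.6, 31.0 and 32.7 CPM in M92KO mice (log2 fold change 0.29, SE 0.07, edgeR adjusted p = 0.188). Its groups did not overlap. Gmppa, a regulator of GDP-mannose supply, was higher by 0.27 (SE 0.09, adjusted p = 0.304) and Pomt2, a subunit of the enzyme that starts the mannose chain, was lower with −0.19 (SE 0.08, adjusted p = 0.390).

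The 13 basement membrane ligands had a median log2 fold change of −0.13, with 0 genes at an unadjusted p-value under 0.05 and adjusted p-values from 0.569 to 0.964. The median was 0.01 without M92KO replicate 1, and 2 of the 13 genes were higher and 0 lower at that threshold, beside 9.62% and 8.96% of all genes. Lama2, the laminin α-chain of the muscle basement membrane, had 66.6 to 68.5 CPM in WT and 44.8, 78.9 and 75.3 CPM in M92KO mice, with M92KO replicate 1 again the lowest, and its log2 fold change of −0.03 became 0.18 (edgeR adjusted p = 0.123) without that library. Nid2, a laminin-binding nidogen, had a log2 fold change of −0.19 (SE 0.12), and Lama5 one of 0.14 (SE 0.12) that was −0.01 without M92KO replicate 1.

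Of 14 tested integrin and costamere linkers, 5 were higher and 0 lower at that threshold, beside 5.47% and 6.92% of all genes. Their median was 0.17. Without M92KO replicate 1 there were 10 higher and 0 lower, beside 9.62% and 8.96% of all genes, with a median of 0.27. With all libraries the higher genes were Flnc, Itga7, Sync, Tln1 and Des. Flnc, filamin C, which binds sarcoglycans and Z-discs, had 956, 918 and 758 CPM in WT and 839, 2670 and 2530 CPM in M92KO mice. M92KO replicate 1 lay within the WT range and the other M92KO libraries lay far above it (log2 fold change 1.20, SE 0.36, edgeR adjusted p = 0.258, and 1.57 with adjusted p = 0.001 without that library). Itga7, the laminin-binding integrin chain of muscle, had 139.6, 124.6 and 121.0 CPM in WT and 149, 166 and 156 CPM in M92KO mice. These groups did not overlap, and M92KO replicate 1 was on the side of the other M92KO libraries (log2 fold change 0.29, SE 0.08, edgeR adjusted p = 0.225). Des, desmin, had 2028 to 2113 CPM in WT and 2383 to 2502 CPM in M92KO mice, again without overlap (log2 fold change 0.23, SE 0.07, edgeR adjusted p = 0.281). DESeq2 called Des with an adjusted p-value of 0.036. Sync, syncoilin, which links desmin to α-dystrobrevin, had a log2 fold change of 0.27, and talin 1 (Tln1) one of 0.26, whereas talin 2 (Tln2) had −0.22 (adjusted p = 0.432).

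Of 10 membrane repair genes, 2 were higher and 0 lower at that threshold, beside 5.47% and 6.92% of all genes, with a median of 0.07. Trim72, which seals torn membrane, had 180.1 to 183 CPM in WT and 199, 232 and 230.4 CPM in M92KO mice, without overlap (log2 fold change 0.28, SE 0.08, edgeR adjusted p = 0.232, and 0.35 with adjusted p = 0.013 without M92KO replicate 1). Dysf, dysferlin, had 101 to 107 CPM in WT and 111 to 126 CPM in M92KO mice, also without overlap (log2 fold change 0.18, SE 0.07, edgeR adjusted p = 0.373). Ahnak, a partner of dysferlin, had a log2 fold change of −0.10 (adjusted p = 0.692). Without M92KO replicate 1, 5 of the 68 pathway genes passed the adjusted threshold, beside 2.48% of all genes in that fit. They were Aqp4, Flnc, Tln1, Trim72 and Anxa2. The last falls outside the rule for named genes and was chosen after its values were seen.

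**Figure D5:**
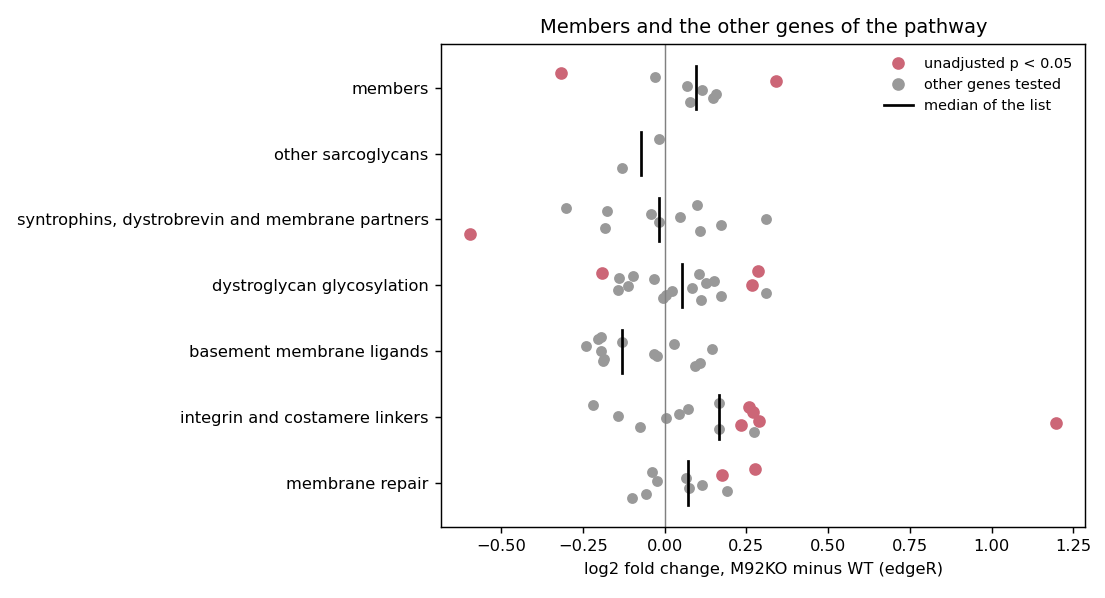
Log2 fold changes, M92KO minus WT (edgeR, horizontal axis), of the 8 genes and the 6 pathway lists, 1 point for each tested gene, with a vertical bar at the median of the list. Points at an unadjusted p-value under 0.05 are red, 5 of them among the integrin and costamere linkers on the positive side, with Flnc at 1.20 farthest out and Aqp4 at −0.59 on the negative side.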

How the data were processed

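Whole Gas muscle of 3 WT and 3 M92KO mice was measured by RNA-seq. The authors deposited raw counts of reads for each gene symbol, without normalization. The labels name a SMARTer kit, and the submitters' processing notes name the builds GRCm38 and mm10. The aligner, the counter and the strandedness are not given in the sources used here. Samples were grouped by the labelled genotype, and no batch is labelled.

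Statistics used edgeR 4.0.16 (R 4.3.3): filterByExpr (minimum count 10, minimum total 15), TMM factors, and a quasi-likelihood test (glmQLFit, glmQLFTest) of M92KO against WT without a covariate, with Benjamini-Hochberg adjustment over all 15788 genes. This replaced the study's limma steps because the values are counts. CPM use TMM-scaled library sizes, and standard errors are the log2 fold change divided by the square root of F. A level of 3 counts, 0.063 to 0.092 CPM, is the floor of detection. Exact permutation tests of single values are two-sided. The model was also run on simulated counts, and the outcome is not reported here. Marker lists were summed in CPM.

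Alternatives were DESeq2 1.42.0 size factors or its Wald test, no filter, at least 10 counts in every library, the study's quantile normalization with log2(x + 1) and limma 3.58.1 on all symbols, offsets for GC content and length (lowess span 0.3), the replicate number as a block, both together, and each library left out in turn. Positions, lengths and 3′-UTRs came from GENCODE M21 (GRCm38), to which 25689 symbols were matched by name and 419 by an older name, with 8606 unmatched. The longest 3′-UTR of each gene was searched.

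The members, lists and tests were chosen with earlier results of these data known. Named were all 8 genes of the complex, in each pathway list every gene at an unadjusted p-value under 0.05 and, for each direction, the gene of lowest p-value, and the 5 genes most correlated with Dmd. Lama2 and the markers named were added after their values were seen. Some genes of the lists are not reported here. Summaries used pandas 2.3.3, numpy 2.4.6 and scipy 1.17.1 under Python 3.11.15, and plots matplotlib 3.10.9.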

Additional observations from a re-analysis of the deposited data

How the results depend on the processing

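Of the 14 alternatives, 13 left the number of complex genes with an adjusted p-value under 0.05 at 0, and leaving out M92KO replicate 1 gave 2, so the range over libraries left out was 0 to 2. At an unadjusted p-value under 0.05 the number was 2 with all libraries, 4 with GC content and length offsets, 0 with quantile normalization and limma, and 0 to 6 with a library left out. For the other genes of the pathway DESeq2's Wald test gave 2 adjusted calls against 0, and leaving out a library gave 0 to 5 adjusted calls and 6 to 23 unadjusted ones against 11. Without M92KO replicate 1 the log2 fold change was 0.113 for Sspn, −0.012 for Lama5 and −0.054 for the ratio of Dtna to Dmd, each with the opposite sign, and over the fits that left out 1 library they ranged from −0.115 to 0.113, from −0.012 to 0.23 and from −0.054 to 0.064. The log2 difference in the ratio of Sgca to Dmd turned from −0.021 to 0.027 with the sum of the other members as denominator, and ranged from −0.238 to 0.112 with a library left out, positive without WT replicate 3, M92KO replicate 2 or M92KO replicate 3. The cause of these shifts was not tested. The replicate numbers in the labels were used as a block. Deviations of WT and M92KO libraries with the same number correlated at 0.08, 0.04 and 0.02 over genes, so nothing shows that the numbers pair the mice. With the replicate block the number of unadjusted calls was 1 in the complex and 7 in the pathway, and over all genes 2 adjusted calls against 0. The block with the offsets gave 3 unadjusted calls in the complex. With the block, the ratios of Utrn, Sgcd and Sspn to Dmd kept their sign in 3 of 3 numbered pairs. The groups do not overlap for these ratios, so any pairing gives this result, and it adds nothing to the unpaired values. An exact test over 3 pairs cannot go below 0.25. Over all genes, an adjusted p-value under 0.05 was reached by 0 genes with edgeR (1955 unadjusted) and 322 with DESeq2. Counting error was small for the 8 genes, since each had at least 1897 reads in every library.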
